A study of Homo sapiens with 6 samples.

Results

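The clustered protocadherins are 3 neighbouring groups of cell-adhesion genes on human chromosome 5, named alpha, beta and gamma. Members were taken by symbol from the deposited expression table, leaving out symbols that end in P, which gave 55 of 31814 genes: 16 alpha, 18 beta and 21 gamma. GENCODE 29 lists 52 of them as protein-coding and the other 3, PCDHA14, PCDHB17 and PCDHB18, as pseudogenes. PCDHGB5 was not analysed here. Cells of H69, a human line grown in RPMI with 10% serum, had been kept for 24 h in 1 µM trichostatin A (TSA) or in DMSO alone (vehicle), and their messenger RNA was sequenced. TSA blocks histone deacetylases, the enzymes that take acetyl groups off histones. Each group held 3 libraries, and both came from unmodified cells of the one line. A tag on the treated samples reads HSA where the rest of the labels has TSA, and the name TSA is used here.

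Each clustered protocadherin is a membrane protein with cadherin repeats outside the cell. Neurons switch on a small and partly random choice of members, and the resulting combinations let a cell tell its own processes from those of its neighbours. Every alpha and gamma member has its own large first exon, the variable exon, with its own promoter, and it is spliced to a set of constant exons that all members of that cluster share and that encode the common cytoplasmic end. Beta genes are single-exon genes with no constant exons. The last genes of the alpha and gamma clusters (PCDHAC1, PCDHAC2, PCDHGC3, PCDHGC4 and PCDHGC5) are called C-type and are known to be expressed more uniformly among neurons than the others. Choice of the other promoters depends on CTCF, cohesin, DNA methylation and distant enhancers.

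Whole reads recovered from the deposited values came to between 22738901 and 26387091 per library. Recovered reads of libraries of a group differed by 7.35 to 95.4 times sampling noise (chi-square per degree of freedom), so no pair was counted as a single library. TSA library 1 and vehicle library 2 stood apart from the other libraries of their groups: the pairs with either gave 42.1 to 95.4, the remaining pairs 7.35 and 15.1. Nothing in the labels shows that libraries stem from separate cultures. The p-values therefore cover only the spread among the libraries, possibly technical. The labels name no tissue for H69, a name in use for more than one line. The neuroendocrine markers INSM1, CHGA, SYP, NCAM1, DLL3 and GRP summed to between 983 and 1185 TPM (transcripts per 1000000, scaled for gene length) in vehicle and 643 to 759 TPM in TSA. This fall was that of INSM1, from between 538 and 693 TPM to between 19.1 and 28.3 TPM. The other 5 summed to 445 to 492 TPM in vehicle and 615 to 740 TPM in TSA: CHGA and NCAM1 rose, DLL3 and GRP fell and SYP was not called. Fibroblast markers summed to 0.211 to 0.935 TPM in vehicle, with 5 of 7 at 0 in every vehicle library, and to 5.71 to 7.62 TPM in TSA. Of the 7 bile duct markers, CFTR was at 0.035 to 0.129 TPM in vehicle. Their summed level was 769 to 976 TPM in vehicle and 344 to 459 TPM in TSA, most of it KRT19 and EPCAM. Of the 6 tested, 3 fell (KRT7, KRT19 and EPCAM) and 3 rose (SOX9, SLC4A2 and SSTR2). SSTR2 went from a mean of 2.61 TPM to 21.2 TPM and SLC4A2 from 20.6 TPM to 59.6 TPM. The 5 blood markers summed to 4.08 to 4.92 TPM in vehicle and 5.41 to 6.07 TPM in TSA. The part of these marker levels in the results was not tested. In bulk RNA, fewer cells with a transcript and less of it per cell cannot be told apart.

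The joints between variable and constant exons show what the members share, and the deposited values turned on them. The sequences are from GENCODE 29 on GRCh38, plus strand, with the last 30 bases of the variable exon in lower case and the first 30 bases of the first constant exon in capitals. In alpha the capitals lie at chr5:140978949-140978978. The 4 alpha members shown are those that changed most in reads of their own, and PCDHAC2.
PCDHA4: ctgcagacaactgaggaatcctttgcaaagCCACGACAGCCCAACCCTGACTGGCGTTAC
PCDHA6: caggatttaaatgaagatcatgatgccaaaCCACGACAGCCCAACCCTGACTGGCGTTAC
PCDHAC1: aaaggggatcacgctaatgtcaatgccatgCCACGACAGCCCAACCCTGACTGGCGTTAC
PCDHAC2: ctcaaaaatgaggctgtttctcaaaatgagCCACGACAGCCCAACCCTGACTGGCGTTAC

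In gamma the capitals lie at chr5:141494807-141494836. The members shown are the C-type genes PCDHGC3 and PCDHGC4, and PCDHGB6, which had the most own reads in vehicle.
PCDHGB6: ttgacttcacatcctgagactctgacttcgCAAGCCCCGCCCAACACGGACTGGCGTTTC
PCDHGC3: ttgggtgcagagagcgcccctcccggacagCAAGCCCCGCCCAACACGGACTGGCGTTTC
PCDHGC4: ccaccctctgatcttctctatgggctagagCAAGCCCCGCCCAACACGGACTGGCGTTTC

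All 15 protein-coding alpha members have the same capital part and 15 different lower-case parts. All 21 gamma members likewise share 1 capital part and have 21 different lower-case parts. The stretches that all members hold come to 59, 89 and 2718 bases in alpha and to 59, 89 and 2033 bases in gamma. A read that lies in them cannot be given to a member.

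By the deposited values, all 15 tested alpha genes were lower in TSA and all 21 gamma genes were higher. Of 17 tested beta genes, 15 were lower, PCDHB6 was higher and PCDHB7 was not called. Tested genes had at least 1 TPM in 3 or more of the 6 libraries, and the test was limma on log2(TPM + 1) with adjusted p under 0.05. In all, 53 of the 55 members were tested: TSA was higher in 22 and lower in 30. Of the 17596 genes in this test 28.0% were called higher and 34.2% lower, and 62.2% in either direction, so a change in itself is common here. The 2 groups of libraries did not overlap for 53 of the 55 members, 23 with TSA higher (PCDHB1, not tested, among them) and 30 with TSA lower. Over all tested genes TSA lay wholly higher in 30.8% and wholly lower in 36.2%, 67.0% together. The median log2 fold change was −1.22 in alpha, −1.15 in beta and 1.48 in gamma, beside −0.095 over all tested genes. Across the 17 alternative settings, no called member changed direction. Among members that could be tested in them, the only call lost was that of PCDHB18.

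**Figure D1:**
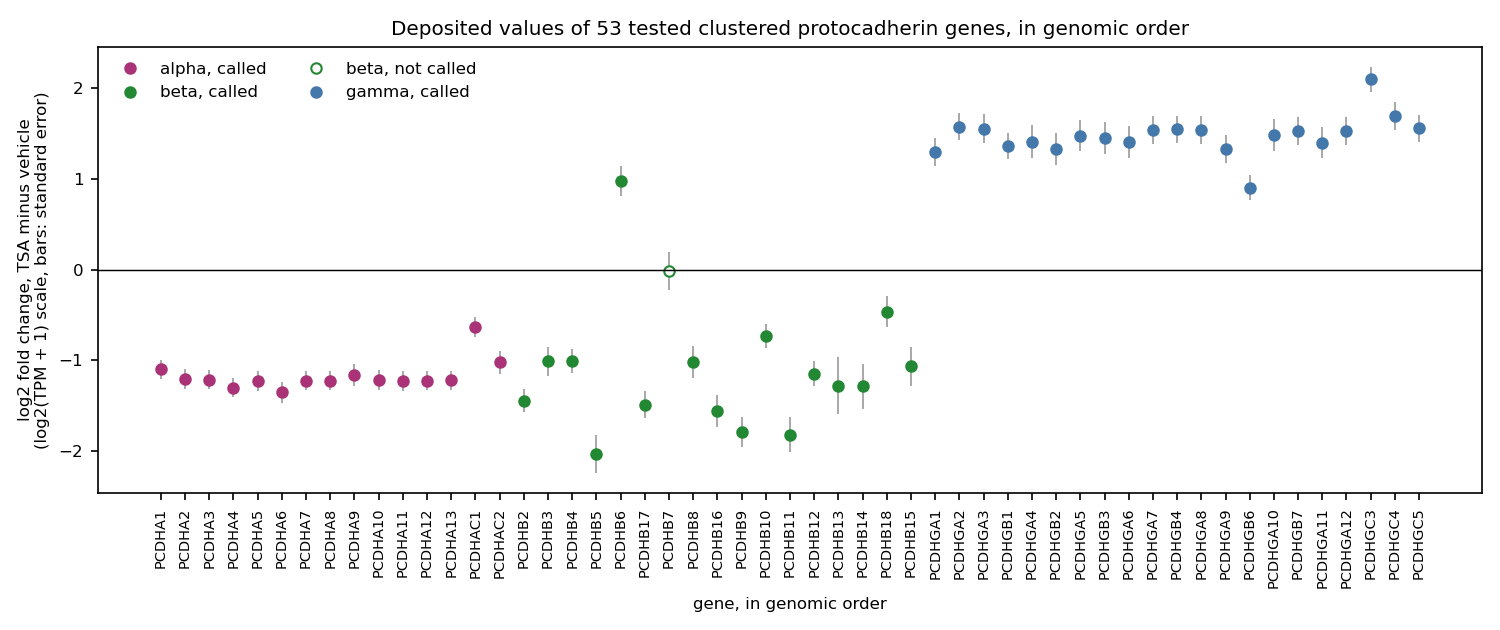
Log2 fold change (TSA minus vehicle, log2(TPM + 1) scale, limma) of the 53 tested members in genomic order, with standard error bars. Filled points passed an adjusted p of 0.05. The alpha points lie close together between −1.35 and −0.63, the gamma points between 0.90 and 2.10, and the beta points spread from −2.03 to 0.98.

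The alpha and gamma calls were not 36 separate measurements. The recovered whole reads were nearly equal for many members of a cluster. PCDHA13, for instance, had 819, 670 and 826 reads in vehicle libraries 1, 2 and 3, and PCDHA2 had 819, 669 and 827. The lowest count among the members of a cluster is therefore called the common reads here, and the excess of a member over it is called its own reads. Common reads made up a median of 99.0% of an alpha member's reads in vehicle and 98.9% in TSA. In gamma these medians were 89.1% and 95.3%. PCDHGA11 was left out of the gamma minimum: it lay under all other members in every library, and its length in the deposited values was 82.9% of that of PCDHGA12, while the other gamma members had 96.4% or more. With PCDHGA11 inside it, the minimum was lower and every other gamma member gained the same number of own reads, 5, 8 and 2 in vehicle and 47, 67 and 66 in TSA. Gamma values are therefore given both ways where they differ. The lowest member of a library has 0 own reads by construction. This division was chosen after the data were seen. Own reads can also hold reads of stretches that a few members share, and how the authors counted reads in overlapping genes was not stated.

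The common alpha reads fell. They came to 818, 669 and 826 in vehicle libraries 1, 2 and 3 and to 344, 338 and 326 in the TSA libraries, with no overlap. In reads per 1000000 this was 31.3 ± 1.90 in vehicle and 13.8 ± 0.229 in TSA (SD, n = 3). The log2 fold change was −1.18 (SE 0.11, adjusted p = 7.2e-05, limma voom on recovered reads), with 34.4% of 17222 tested rows called higher and 31.4% lower in that fit.

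Own alpha reads were held by few members, and these did not move together. Only 6 of the 15 protein-coding members reached 10 own reads in 3 libraries: 1 rose, 3 fell and 2 were not called. The shares over all rows of that fit were 34.4% higher and 31.4% lower. PCDHA4, a variable member in the first part of the cluster, had 66, 69 and 81 own reads in vehicle and 10, 14 and 13 in TSA. All TSA libraries were lower, and its log2 fold change was −2.50 (SE 0.25, adjusted p = 0.00010, limma voom), a 5.64-fold fall. PCDHA6 had 221, 128 and 201 own reads in vehicle and 61, 38 and 35 in TSA. It was the alpha member with the most own reads outside the C-type genes in vehicle, and it fell 4.06-fold (log2 fold change −2.02, SE 0.28, adjusted p = 0.00050). PCDHA7 went from 42, 34 and 38 own reads to 24, 18 and 12, a smaller fall without overlap (log2 fold change −1.09, SE 0.29, adjusted p = 0.012).

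PCDHAC1, a C-type gene, moved the other way. It had 114, 89 and 110 own reads in vehicle and 310, 240 and 237 in TSA, so that every TSA library held more than any vehicle library. Its own reads rose 2.52-fold (log2 fold change 1.34, SE 0.17, adjusted p = 0.00030, limma voom). Its log2 fold change stayed between 1.23 and 1.41 with any 1 library left out. Its deposited TPM, which includes the common reads, fell at the same time from 23.5, 20.3 and 22.2 to 15.1, 13.0 and 13.4 (log2 fold change −0.63, SE 0.11, adjusted p = 0.0027, limma). PCDHAC2, the other C-type gene of the cluster, had 210, 165 and 296 own reads in vehicle and 223, 132 and 163 in TSA. These groups overlap, and the change was not called (log2 fold change −0.36, SE 0.24, adjusted p = 0.23, limma voom), although its TPM was called lower (−1.02, SE 0.13, adjusted p = 0.00049, limma). PCDHA1 had 25, 38 and 38 own reads in vehicle and 45, 57 and 50 in TSA. These did not overlap, but the change missed the threshold (log2 fold change 0.62, SE 0.26, adjusted p = 0.067, limma voom), while its TPM was called lower.

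The other 9 alpha members had between 0 and 21 own reads in any library and too few for the test. They were PCDHA2, PCDHA3, PCDHA5 and PCDHA8 to PCDHA13. Of these, PCDHA5 gave a TPM fold change among the 3 greatest falls of the cluster (log2 −1.23, SE 0.11), yet its own reads were 2, 10 and 11 in vehicle and 5, 0 and 1 in TSA. Its TPM call thus rested almost wholly on the common reads. The pseudogene PCDHA14 has no constant exons. It stood at 1.40, 0.284 and 0.755 TPM in vehicle and 0.920, 0.060 and 0.063 TPM in TSA, was not tested on TPM, and overlapped between the groups.

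As shares, PCDHAC1 held 15.3% ± 1.31 of all own alpha reads in vehicle and 45.5% ± 2.04 in TSA (SD, n = 3). PCDHA6 went from 26.4% ± 3.86 to 7.59% ± 0.903, and PCDHA4 from 10.6% ± 1.74 to 2.22% ± 0.725. PCDHAC2 held 32.1% ± 4.33 and 29.5% ± 2.99. These are shares of reads, not of molecules per length. In TSA, the C-type genes thus held most of the own alpha reads.

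**Figure D2:**
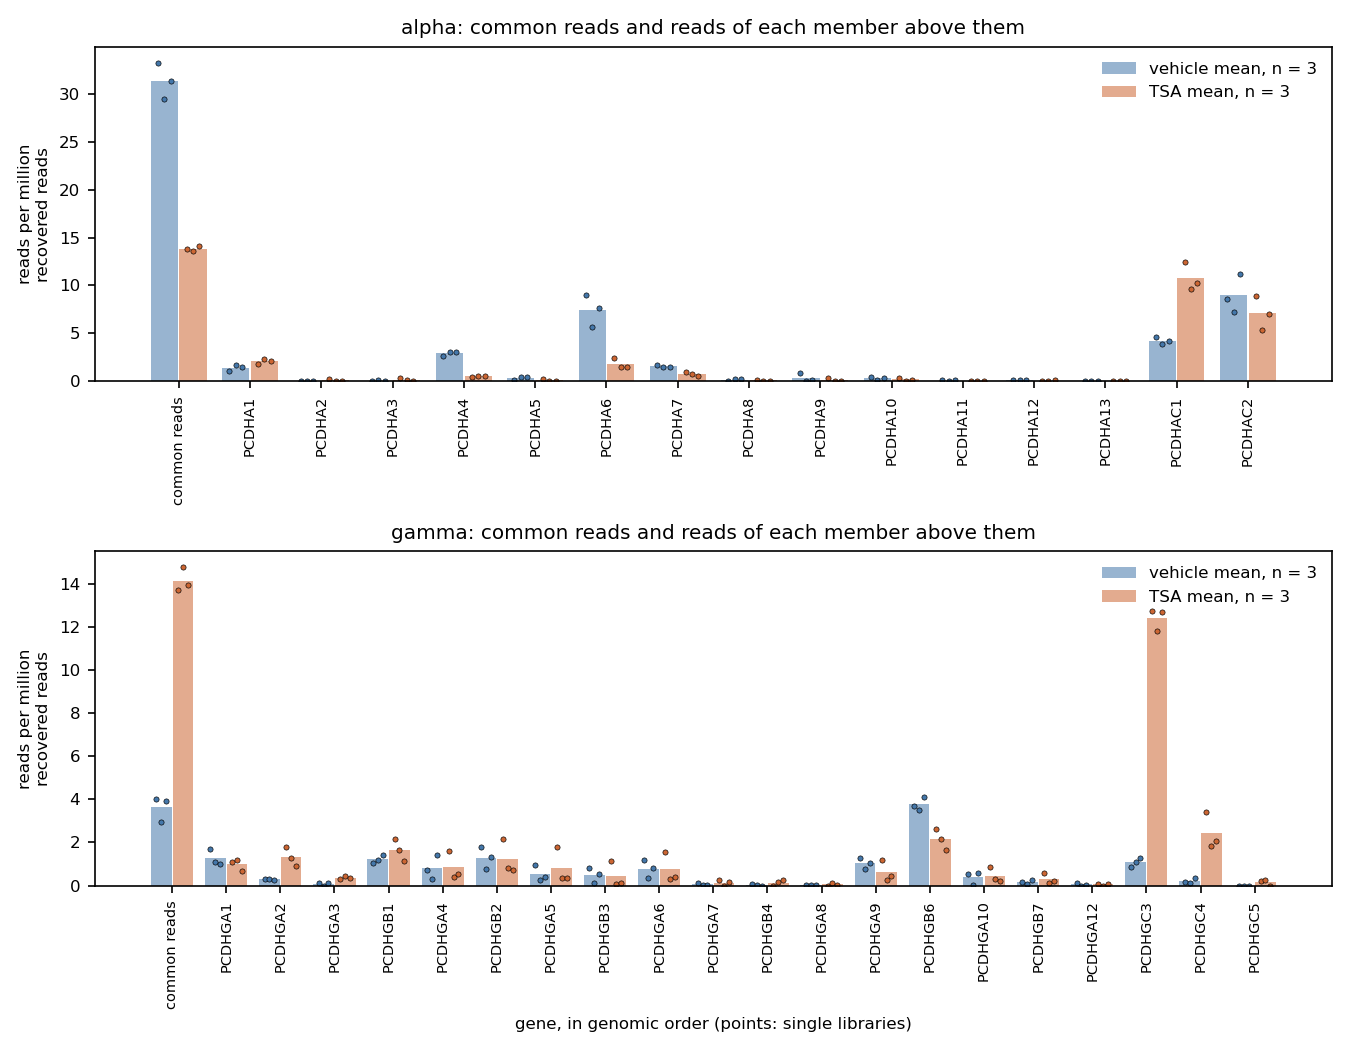
Common reads and own reads per 1000000 recovered reads of the alpha members (top) and gamma members (bottom, without PCDHGA11), as the mean of 3 libraries (bars) with single libraries as points. The common alpha bar falls from 31.3 to 13.8 while PCDHAC1 rises, and the common gamma bar rises from 3.62 to 14.2 together with PCDHGC3 and PCDHGC4.

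The common gamma reads rose. They came to 99, 67 and 103 in vehicle and to 343, 367 and 324 in TSA, with no overlap. In reads per 1000000 this was 3.62 ± 0.589 and 14.2 ± 0.551 (SD, n = 3). The log2 fold change was 1.97 (SE 0.16, adjusted p = 4.0e-05, limma voom), a 3.91-fold rise. With PCDHGA11 inside the minimum they were 94, 59 and 101 in vehicle and 296, 300 and 258 in TSA, a 3.44-fold rise (log2 fold change 1.78, SE 0.18, adjusted p = 0.00011).

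With PCDHGA11 left out of the minimum, 13 of 21 gamma members could be tested on own reads: 3 rose, 1 fell and 9 were not called. Of all rows in that fit 34.4% were called higher and 31.4% lower. Of the 3 that rose, PCDHGA2 and PCDHGC4 entered the test through TSA alone. With PCDHGA11 inside the minimum, 20 could be tested: 19 rose and PCDHGB6 was not called, beside 34.5% of all rows called higher in that fit. All 20 then hold the same added reads, so the 19 rises are not separate measurements. No vehicle library of 6 of the 19 had 10 own reads, so that they entered the test through TSA alone. PCDHGB7 had 10 or more in 1 vehicle library, and PCDHGA2, PCDHGA10 and PCDHGC4 in 2. These also needed TSA libraries to enter. How many gamma members rose in reads of their own thus depends on how PCDHGA11 is treated.

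The C-type gene PCDHGC3 rose on both definitions. Without PCDHGA11 in the minimum it had 21, 25 and 34 own reads in vehicle and 318, 294 and 295 in TSA. The lowest TSA library thus lay far above the highest vehicle library, and the rise was 11.4-fold (log2 fold change 3.52, SE 0.21, adjusted p = 1.0e-05, limma voom). With PCDHGA11 it had 26, 33 and 36 in vehicle and 365, 361 and 361 in TSA, an 11.5-fold rise, and it held the most own reads of all gamma members in TSA either way.

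PCDHGC4, also C-type, had 4, 3 and 9 own reads in vehicle and 85, 45 and 48 in TSA, a 10.8-fold difference (log2 fold change 3.44, SE 0.47, adjusted p = 0.00042, limma voom). It passed the filter only through its TSA libraries, so its call rests on the group where it was high. TSA library 1 was the highest here, and with any 1 library left out the log2 fold change stayed between 3.16 and 3.81. With PCDHGA11 in the minimum PCDHGC4 had 9, 11 and 11 in vehicle and 132, 112 and 114 in TSA (log2 fold change 3.48, SE 0.25, adjusted p = 2.0e-05). The remaining C-type gene, PCDHGC5, was itself the lowest member in every vehicle library, so its own reads there are 0 by construction, and it had 5, 6 and 0 in TSA. With PCDHGA11 in the minimum these became 5, 8 and 2 in vehicle and 52, 73 and 66 in TSA. That is a 13.3-fold difference, the greatest of the cluster on that definition, and PCDHGC5 entered that test through TSA alone. Its vehicle reads there were wholly the number that every member gained. Its TSA reads were nearly so, as every member gained 47, 67 and 66. The 13.3-fold difference is thus mainly that of the added number and not of PCDHGC5 itself. Its TPM was called higher (log2 fold change 1.55, SE 0.15, adjusted p = 0.00018, limma).

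PCDHGB6 had the most own gamma reads in vehicle, 91, 80 and 108, and had 66, 54 and 38 in TSA, a 1.77-fold fall without overlap (log2 fold change −0.82, SE 0.22, adjusted p = 0.013, limma voom). Without TSA library 3 this fall was not called, with an adjusted p of 0.0503. With PCDHGA11 inside the minimum it was not a fall: PCDHGB6 had 96, 88 and 110 own reads in vehicle and 113, 121 and 104 in TSA, which overlap (log2 fold change 0.22, SE 0.15, adjusted p = 0.25). Its TPM rose, by 0.90 on the log2 scale (SE 0.14, adjusted p = 0.0013, limma), the smallest rise among the gamma members.

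PCDHGA2 had 7 own reads in each vehicle library and 45, 32 and 21 in TSA (log2 fold change 2.10, SE 0.37, adjusted p = 0.0017, limma voom). It too passed the filter only through TSA. With PCDHGA11 in the minimum it had 12, 15 and 9 in vehicle and 92, 99 and 87 in TSA (log2 fold change 2.95, SE 0.28).

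PCDHGB1 and PCDHGB2 were not called without PCDHGA11 in the minimum and rose with it. PCDHGB1 had 26, 27 and 37 own reads in vehicle and 54, 41 and 26 in TSA (log2 fold change 0.39, SE 0.30, adjusted p = 0.29, limma voom), and a log2 fold change of 1.52 (SE 0.19) with PCDHGA11. PCDHGB2 had 44, 17 and 35 in vehicle and 54, 20 and 17 in TSA (log2 fold change −0.16, SE 0.50), and 1.33 (SE 0.25) with PCDHGA11. Without PCDHGA11 in the minimum the groups overlap for both genes. TSA library 1 had the most own reads of the TSA libraries in 14 of the 20 gamma members with a value, and its part in these numbers was not tested. The 8 members not tested, PCDHGA11 among them, had 14 own reads or fewer in every library.

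Without PCDHGA11 in the minimum, PCDHGC3 held 8.30% ± 2.71 of own gamma reads in vehicle and 47.1% ± 10.1 in TSA, and PCDHGC4 went from 1.54% ± 0.661 to 8.75% ± 0.962 (SD, n = 3). PCDHGB6 went from 28.6% ± 5.61 to 7.93% ± 1.14. These shares depend on the definition. With PCDHGA11 in the minimum PCDHGC3 held 26, 33 and 36 of 486, 391 and 433 own gamma reads in vehicle. In TSA it held 365, 361 and 361 of 1828, 1925 and 1854, a far smaller share than 47.1%. In both clusters a C-type gene held the largest share of own reads in TSA. In alpha this was so in vehicle too, where PCDHAC2 had the largest mean share (32.1%, beside 26.4% in PCDHA6).

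Common and own reads changed by different factors. Summed own alpha reads were 719, 549 and 798 in vehicle and 715, 506 and 520 in TSA, a ratio of 0.855 between depth-scaled means, beside 0.441 for the common alpha reads. Per common read there were 0.889 ± 0.073 own alpha reads in vehicle and 1.72 ± 0.311 in TSA (SD, n = 3), without overlap. In gamma the direction depended on PCDHGA11. Left out of the minimum, summed own gamma reads were 386, 231 and 393 in vehicle and 888, 585 and 534 in TSA, a ratio of 2.02, beside 3.91 for the common gamma reads. Per common read there were then 3.72 ± 0.240 own gamma reads in vehicle and 1.94 ± 0.559 in TSA. With PCDHGA11 in the minimum the sums were 486, 391 and 433 in vehicle and 1828, 1925 and 1854 in TSA, a ratio of 4.32, beside 3.42 for the common reads. Per common read there were then 5.36 ± 1.18 and 6.59 ± 0.528 own gamma reads, and the groups overlap. No test was made of these sums.

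**Figure D3:**
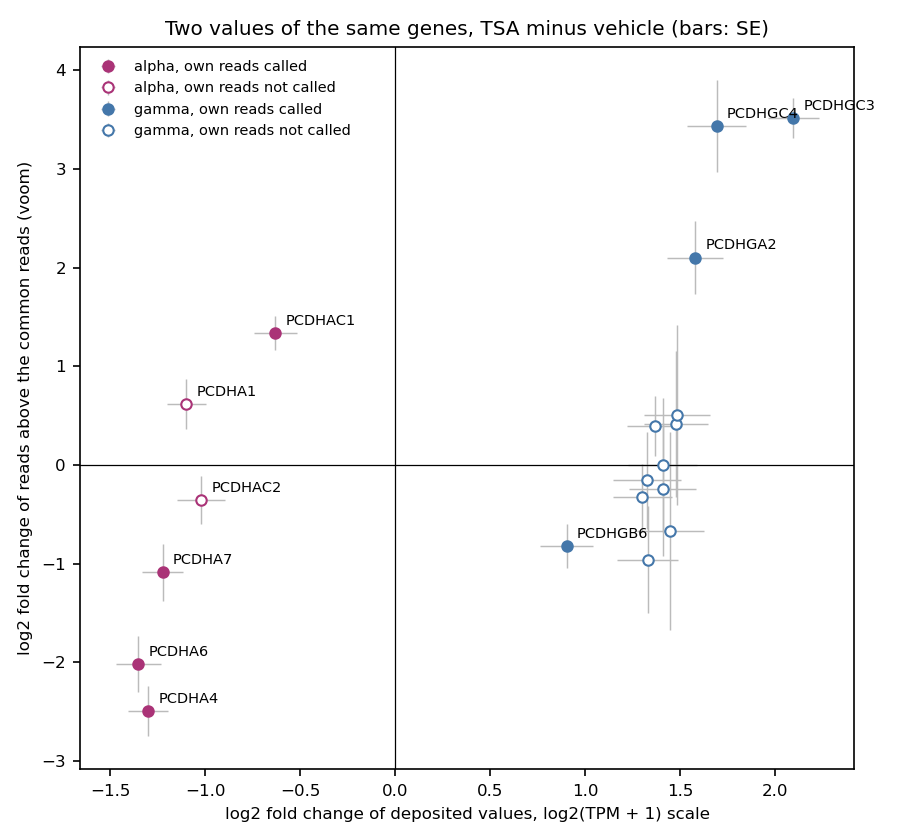
Log2 fold change (TSA minus vehicle) of the deposited values (horizontal, log2(TPM + 1) scale, limma) against that of own reads (vertical, limma voom) for the 6 alpha and 13 gamma members tested on own reads (PCDHGA11 left out of the minimum), with standard errors. The values differ in sign for 2 alpha and 6 gamma members. PCDHAC1 lies at −0.63 and 1.34 and PCDHGB6 at 0.90 and −0.82, and PCDHGC3 lies at 2.10 and 3.52.

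Beta genes have no constant exons, and their TPM values are their own. Beta genes fell in TSA, all but 2 of those tested. TPM is per gene length, so levels can be compared between genes. PCDHB2 had the highest mean level of the cluster, at 21.3, 21.7 and 22.6 TPM in vehicle and 8.50, 6.81 and 6.97 TPM in TSA. It fell by 1.44 on the log2 scale (SE 0.12, adjusted p = 0.00010, limma), and no other beta gene reached its vehicle level. The next highest were PCDHB4, PCDHB10, PCDHB14 and PCDHB16. PCDHB4 stood at 10.9, 13.4 and 12.2 TPM in vehicle and 5.51, 5.33 and 5.73 TPM in TSA. PCDHB10 stood at 8.92, 8.85 and 8.84 TPM in vehicle and 5.68, 4.63 and 4.57 TPM in TSA. PCDHB10 had the smallest called fall among the protein-coding beta genes (log2 fold change −0.73, SE 0.14). PCDHB14 stood at 12.4, 6.74 and 11.0 TPM in vehicle and 4.28, 3.02 and 3.04 TPM in TSA. PCDHB16 stood at 10.9, 8.23 and 10.1 TPM in vehicle and 3.15, 2.70 and 2.14 TPM in TSA. In vehicle PCDHB4 lay above PCDHB10 in every library, while the values of PCDHB14 and PCDHB16 overlapped those of both.

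The 3 greatest falls of the cluster were those of PCDHB5, PCDHB11 and PCDHB9. PCDHB5 stood at 7.78, 5.76 and 7.73 TPM in vehicle and 1.42, 0.924 and 0.632 TPM in TSA. Its fall was 2.03 as log2(TPM + 1) (log2 fold change −2.03, SE 0.21, adjusted p = 0.00020, limma), and 6.64-fold on recovered reads (limma voom). PCDHB11 went from 8.71, 6.07 and 9.13 TPM to 1.72, 1.60 and 1.23 TPM (log2 fold change −1.82, SE 0.19). PCDHB9 went from 8.84, 7.51 and 7.23 TPM to 1.93, 1.24 and 1.54 TPM (log2 fold change −1.79, SE 0.17). In each, every TSA library was lower than every vehicle library. The other called protein-coding members, PCDHB3, PCDHB8, PCDHB12, PCDHB13 and PCDHB15, fell by 1.01 to 1.28 on the log2 scale, also without overlap.

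PCDHB6 was the exception that rose. It stood at 0.282, 0.0999 and 0.222 TPM in vehicle and 1.64, 1.05 and 1.42 TPM in TSA (log2 fold change 0.98, SE 0.16, adjusted p = 0.0018, limma). It passed the filter only through its TSA level, which rests on 38, 25 and 32 reads against 6, 2 and 5 in vehicle. On recovered reads the rise was 7.10-fold (limma voom, adjusted p = 0.00061). Its neighbour PCDHB5 is the gene that fell most. PCDHB7, on the other side of PCDHB6 and the pseudogene PCDHB17, overlapped between the groups at 2.42, 1.20 and 2.09 TPM in vehicle and 1.96, 2.06 and 1.48 TPM in TSA (log2 fold change −0.016, SE 0.21, adjusted p = 0.95). PCDHB1, the first gene of the cluster, had no read in vehicle, which allows up to 3 reads per library, and 6, 3 and 2 reads in TSA. It was too low for the test. In the authors' deposited table PCDHB6 had a log2 fold change of 2.78 and PCDHB1 of 5.85, the second of which depends on how the authors treated a group at 0.

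The pseudogenes PCDHB17 and PCDHB18 lie inside the beta cluster. PCDHB17 went from 7.23, 8.37 and 7.93 TPM in vehicle to 2.20, 1.84 and 2.44 TPM in TSA (log2 fold change −1.49, SE 0.15, adjusted p = 0.00018, limma). PCDHB18 went from 1.94, 1.26 and 1.74 TPM to 1.09, 0.720 and 0.937 TPM, and its adjusted p of 0.0498 lay at the threshold. It was not called on recovered reads (adjusted p = 0.061, limma voom). The pseudogenes PCDHB19P and PCDHGB8P, outside the rule, stayed under 1 TPM in every library. Beta genes are similar in sequence, and no source used here says how reads that match several of them were counted, so single beta values are uncertain to that extent.

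**Figure D4:**
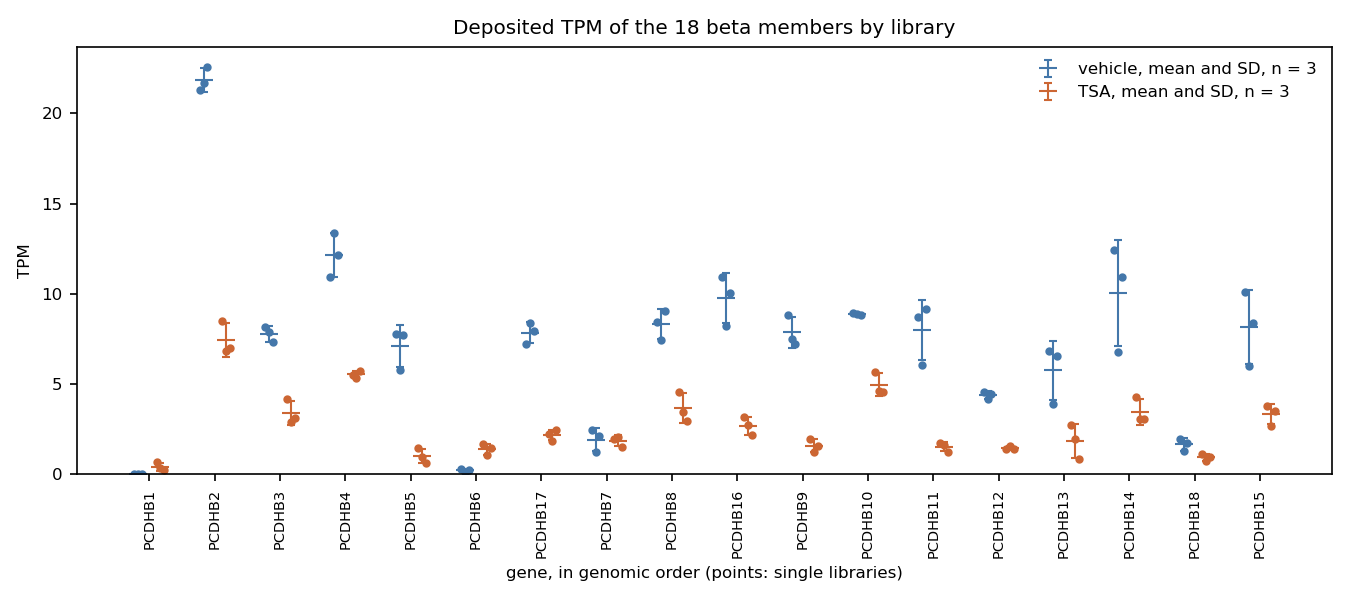
Deposited TPM of the 18 beta members in genomic order, single libraries as points with mean and SD of 3 libraries per group. PCDHB2 is highest in both groups, at 21.9 and 7.43 TPM on average, and PCDHB6 and PCDHB1, both under 2 TPM, are higher in TSA in every library.

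Within the beta cluster the fall was uneven. The 16 protein-coding beta genes summed to 131, 109 and 127 TPM in vehicle and 53.1, 42.2 and 40.7 TPM in TSA. Of that sum PCDHB5 held 5.78% ± 0.436 in vehicle and 2.14% ± 0.566 in TSA, and PCDHB10 held 7.31% ± 0.711 and 11.0% ± 0.262 (SD, n = 3). PCDHB2 held 18.0% ± 1.83 and 16.4% ± 0.591. The corresponding TPM sums of alpha (326 ± 23.5 in vehicle and 137 ± 5.48 in TSA) and gamma (71.7 ± 13.2 and 235 ± 9.86) count the common reads once for every member and are no measure of cluster output.

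Most promoters of the members held the letters CGCT at a like distance before the start. RefSeq start sites (GRCh38.p14) matched 46 of the 55 members with 50 promoters, each of 250 bases before and 50 after the start. The letters CGCT are the core of an element known from clustered protocadherin promoters, which was not searched as a whole. The letters were searched on both strands (AGCG on the other). They occurred in 12 of 13 alpha, 14 of 14 beta and 23 of 23 gamma promoters, beside 70.0% of all 35116 promoters of that length, so that their presence alone is common. Position set the members apart: CGCT on the gene's own strand, beginning 100 to 30 bases before the start, was in 42 of 50 member promoters (84.0%) and in 21.6% of all. This window was chosen after the matches were seen. Median GC content was 37.3% in alpha, 40.8% in beta, 44.3% in gamma and 58.7% over all promoters. Matched C-type promoters had 66.0% in PCDHAC1, 63.0% in PCDHAC2, 59.0% in PCDHGC3 and 60.7% and 62.3% in PCDHGC4. A few other gamma promoters came near: the second one of PCDHGB6 had 65.0% and the second one of PCDHGB4 58.7%.

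The 150 bases printed here, plus strand, show the GC-poor and the GC-rich kind side by side, with CGCT or AGCG in capitals. PCDHA4, PCDHA6 and PCDHB9 fell and PCDHAC1, PCDHGC3 and PCDHGC4 rose in own reads or TPM, and PCDHAC2 was not called in own reads. These were chosen after their values were seen, and other members do not follow the same order: PCDHGA2 rose with a promoter of 41.0% GC, and PCDHGB6, with 50% and 65.0%, fell in own reads when PCDHGA11 was left out of the minimum. The stretches lie at chr5:140806918-140807067 (PCDHA4), chr5:140827810-140827959 (PCDHA6), chr5:141187011-141187160 (PCDHB9), chr5:140926149-140926298 (PCDHAC1), chr5:140966326-140966475 (PCDHAC2), chr5:141475816-141475965 (PCDHGC3) and chr5:141484880-141485029 (PCDHGC4).
PCDHA4: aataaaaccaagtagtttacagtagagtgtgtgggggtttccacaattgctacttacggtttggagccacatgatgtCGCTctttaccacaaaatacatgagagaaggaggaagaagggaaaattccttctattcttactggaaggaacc
PCDHA6: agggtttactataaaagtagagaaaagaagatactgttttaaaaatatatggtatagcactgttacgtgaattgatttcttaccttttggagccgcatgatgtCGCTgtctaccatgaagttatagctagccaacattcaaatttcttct
PCDHB9: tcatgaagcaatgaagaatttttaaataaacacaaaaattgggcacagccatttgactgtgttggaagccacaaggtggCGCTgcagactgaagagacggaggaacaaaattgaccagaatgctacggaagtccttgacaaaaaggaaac
PCDHAC1: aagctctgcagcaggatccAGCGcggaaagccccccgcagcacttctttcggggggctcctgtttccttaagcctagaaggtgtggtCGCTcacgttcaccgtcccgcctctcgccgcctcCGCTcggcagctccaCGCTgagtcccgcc
PCDHAC2: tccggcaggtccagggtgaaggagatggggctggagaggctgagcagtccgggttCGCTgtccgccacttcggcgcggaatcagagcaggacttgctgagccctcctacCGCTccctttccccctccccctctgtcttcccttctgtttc
PCDHGC3: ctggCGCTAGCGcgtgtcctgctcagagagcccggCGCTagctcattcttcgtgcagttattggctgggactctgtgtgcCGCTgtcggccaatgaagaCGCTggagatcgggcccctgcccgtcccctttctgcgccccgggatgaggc
PCDHGC4: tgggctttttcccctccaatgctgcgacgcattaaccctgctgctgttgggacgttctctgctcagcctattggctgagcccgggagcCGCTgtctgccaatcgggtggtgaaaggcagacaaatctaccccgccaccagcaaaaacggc

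PCDHA4, PCDHA6 and PCDHB9 each hold 1 CGCT in these stretches, PCDHAC1 holds 4, PCDHAC2 holds 2, PCDHGC3 holds 5 and PCDHGC4 holds 1. A match is a description of letters and no measure of binding.

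Protocadherins outside the clusters, which are single genes, moved in both directions. Of 12 listed, 9 were tested, 4 rose and 3 fell, with a median log2 fold change of 0.49. Over all tested genes 28.0% rose and 34.2% fell. PCDH9 rose most, from 6.53, 6.25 and 5.26 TPM in vehicle to 38.4, 33.6 and 32.9 TPM in TSA (log2 fold change 2.36, SE 0.13). PCDH1 rose from 6.42, 5.28 and 6.54 TPM to 17.5, 13.0 and 13.4 TPM, and PCDH10 rose too (log2 fold change 1.11, SE 0.16). PCDH7 fell (log2 fold change −1.20, SE 0.28, adjusted p = 0.0084, limma), and it passed the filter through vehicle alone.

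Genes for CTCF and cohesin, the ring complex that CTCF halts to form chromatin loops between enhancers and protocadherin promoters, were lower in TSA. Of 12 tested, 10 fell and none was called higher, and the median log2 fold change was −1.37. The shares over all tested genes were 34.2% lower and 28.0% higher. CTCF itself went from 104, 103 and 118 TPM in vehicle to 31.6, 31.7 and 30.1 TPM in TSA (log2 fold change −1.77, SE 0.09, adjusted p = 1.5e-05, limma). The cohesin subunit genes STAG2 (log2 fold change −2.92, SE 0.14) and STAG1 (−2.30, SE 0.11) fell most, and PDS5A, a regulator of cohesin release, fell too (−1.71, SE 0.12). ZNF143 and WAPAL were not called.

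Of 19 genes for silencing and DNA methylation factors, all tested, 13 fell, 1 rose and 5 were not called (median log2 fold change −1.02). Among all tested genes 34.2% fell and 28.0% rose. TET2, an enzyme that oxidises methylated cytosine, fell most (log2 fold change −2.71, SE 0.28), having passed the filter through vehicle alone. ATF7IP, a partner of the histone methyltransferase SETDB1 (−2.02, SE 0.33), and the DNA methyltransferase gene DNMT3A (−1.85, SE 0.17) followed. SMCHD1, a chromatin protein known to act on clustered protocadherins, went from 122, 77.6 and 112 TPM to 77.7, 38.5 and 38.4 TPM (log2 fold change −1.06, SE 0.31, adjusted p = 0.022, limma). TSA library 1 was as high as vehicle library 2, and the call was lost without vehicle library 1, vehicle library 3, TSA library 2 or TSA library 3 (adjusted p = 0.071 to 0.077). REST, a repressor of neuronal genes, was the 1 that rose, from 0.114, 0.061 and 0 TPM to 8.41, 4.00 and 4.29 TPM (log2 fold change 2.57, SE 0.26). It passed the filter of 1 TPM only through TSA, and at a filter of 5 TPM it was not tested and no factor of the list was called higher.

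Genes for known partners of clustered protocadherins, which bind or cut their cytoplasmic end, had 4 of 18 higher, 7 lower and 7 not called (median log2 fold change −0.19). Over all tested genes 28.0% were higher and 34.2% lower, so these counts do not set the partners apart. CYFIP1 and NCKAP1, subunits of the WAVE complex that binds protocadherin tails, fell alike (log2 fold changes −1.73, SE 0.15, and −1.73, SE 0.12). NCSTN, a gamma-secretase subunit, fell (−1.08, SE 0.09), and RET, a receptor kinase, rose from under 1 TPM to between 2.09 and 2.23 TPM (1.03, SE 0.14), passing the filter through TSA alone.

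Genes on either side of the clusters did not share a direction. Of 18 tested neighbours 7 were higher, 4 lower and 7 not called, with a median log2 fold change of 0.099, beside 28.0% higher and 34.2% lower over all genes tested. Only 2 were lower under median-of-ratios scaling, quantile scaling or limma voom on recovered reads, and 1 in the authors' deposited table. FCHSD1 (log2 fold change 2.69, SE 0.27), RELL2 (2.36, SE 0.16), ARAP3 (1.76, SE 0.19) and HDAC3 (1.57, SE 0.08), all beyond the gamma end, rose, ARAP3 having passed the filter through TSA alone. The 4 called lower lie beyond the gamma end too. They were DIAPH1 (−1.02, SE 0.14), RNF14 (−0.52, SE 0.12), KIAA0141 (−0.45, SE 0.14) and GNPDA1 (−0.40, SE 0.12). HDAC3 encodes a histone deacetylase, and its TPM went from 61.1, 68.1 and 60.6 to 196, 186 and 186. FCHSD1 and RELL2 share 1003 exonic bases in GENCODE 29 on opposite strands, and whether strand was used in counting was not stated, so their reads there cannot be told apart. TAF7, between the beta and gamma clusters, was not called (−0.20, SE 0.11, adjusted p = 0.17, limma).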

How the data were processed

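Messenger RNA of H69 cells was sequenced from a stranded kit as 3 vehicle and 3 TSA libraries, per the labels. Build hg19 and the tools STAR 2.5.3a, featureCounts, edgeR, FastQC 0.11.2 and Picard 1.127 are in the submitters' processing notes, with no roles; further settings are not stated there. The authors deposited TPM values of GENCODE 19 genes. The authors' deposited comparison table holds, per gene, fold changes and mean levels as log2, a likelihood ratio score, and a p-value and FDR, per the file headers.

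Groups were compared with limma (version 3.58.1, R 4.3.3; lmFit, eBayes with trend) on log2(TPM + 1), two-sided, for genes at 1 TPM or more in 3 of 6 libraries, with Benjamini-Hochberg adjustment over all 17596 and a threshold of 0.05. This log2 scale understates changes of low genes. Ratios of TPM between libraries gave whole reads for 100% of 27644 genes (relative tolerance 1e-08). The smallest fitting whole numbers were taken, multiplied for 335 genes to fit the authors' mean level. Own reads were tested with limma voom at 10 reads or more in 3 libraries, with PCDHGA11 in or out of the gamma minimum. The recovery of reads and the limma and limma voom fits were checked on simulated data. In the simulated clusters some members had no own reads by design, so the division into common and own reads was not put to the test. No simulated fit held own reads.

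The rule for named genes took, per cluster, the 5 highest mean TPM, the 3 greatest called rises and falls, and the C-type genes and PCDHB1. From each other list it took up to 4 called members of greatest change, with CTCF, SMCHD1, REST, HDAC3, TAF7 and PCDH1. Others named were chosen after their values were seen. The members and lists were chosen with earlier results of these data known. Deviations of same-numbered libraries correlated by 0.63, 0.59 and −0.073. These values do not settle whether the numbers pair. The main test did not pair them, and a replicate block was an alternative. Protein sequences were not used here. HBB of the blood list was not analysed here. Further marker genes are not reported here.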

Additional observations from a re-analysis of the deposited data

How the results depend on the processing

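Alternatives were median-of-ratios and quantile scaling, pseudocounts of 0.1 and 0.5, no filter and filters of 0.1 and 5 TPM, limma with robust variance or with no trend, a replicate block, each library left out, and voom on recovered reads. Median-of-ratios scaling moved the median log2 fold change of all genes by 0.11 and voom by 0.14. No gene taken by the rule for named genes changed direction under any of these. PCDHB7, named outside that rule and not called, had a log2 fold change of −0.016 on TPM and 0.12 with limma voom. With the replicate number as a block, 22 members were higher and 30 lower, as without it, and it changed no call of a member. Over all 17596 tested genes 5637 were then called higher and 6848 lower, beside 4929 and 6013 without the block. Quantile scaling gave summed TPM in TSA of 147 for alpha and 253 for gamma. The number of beta genes higher was 2 without a filter or with 0.1 TPM, and 0 at 5 TPM. At 5 TPM, 2 non-clustered protocadherins and 0 silencing factors were higher. Lower neighbouring genes numbered 2 under either scaling and voom, and between 2 and 4 with a library left out. The cause of the changes under the scalings and voom was not tested. SMCHD1 was not called in 4 of the 6 fits without a library. PCDHB18 was not called in 11 of 17 alternatives.

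Own reads, added after the data were seen, gave 5 members higher and 18 lower in all. Among all rows of that fit 34.4% were higher and 31.4% lower. In alpha 1 was higher and 3 lower, and in gamma 3 higher and 1 lower. Log2 fold changes turned in 2 alpha and 6 gamma members: PCDHAC1 (1.34), PCDHA1 (0.62), PCDHGB6 (−0.82), PCDHGB2 (−0.16), PCDHGA1 (−0.33), PCDHGB3 (−0.67), PCDHGA6 (−0.25) and PCDHGA9 (−0.96). Of these, PCDHAC1 and PCDHGB6 were called. With PCDHGA11 in the minimum, 17 members were lower in all, 19 gamma members were higher, and no gamma member that was tested turned. Those 19 all hold the same added reads and are not separate measurements. PCDHAC1 (1.34) stayed higher. At a minimum of 1 read, PCDHA11 (lower) and PCDHGA3 (higher) were called too. Of 36 alpha and gamma members, 17 could not be tested on own reads, most for too few reads, and PCDHGA11 because it was left out of the minimum.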
